A study of Rattus norvegicus with 4 samples.

Results

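Drd1, Drd2 and Drd3 encode the 3 dopamine receptors that were counted in appreciable numbers in nuclei of the rat nucleus accumbens. The rows were chosen by symbol (Drd1, ENSRNOG00000023688; Drd2, ENSRNOG00000008428; Drd3, ENSRNOG00000060806), and all 3 were found among 30560 listed features. The choice used no measured value. The remaining dopamine receptor genes, Drd4 and Drd5, had 1 UMI each in the whole dataset and are not described further. A UMI (unique molecular identifier) marks 1 captured RNA molecule.

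Dopamine receptors are G protein-coupled receptors of 2 families. D1-type receptors, to which Drd1 belongs, stimulate adenylyl cyclase, whereas D2-type receptors, to which Drd2 and Drd3 belong, inhibit it. Most neurons of the nucleus accumbens are GABAergic medium spiny neurons (MSNs), and textbook accounts divide them into a Drd1-expressing type that makes dynorphin and substance P and a Drd2-expressing type that makes enkephalin. Drd3 is enriched in the ventral striatum, above all in the islands of Calleja. Cocaine blocks the dopamine transporter, so that all of these receptors are exposed to more dopamine.

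Nuclei came from Sprague-Dawley rats of both sexes aged 90 to 120 days. A rat received either cocaine (20 mg/kg, intraperitoneal) or saline once a day for 7 days and was then observed in an open field. The accumbens was collected 1 hour after the final dose with a 2 mm punch centred on its core. Each of the 4 libraries (saline female, cocaine female, saline male, cocaine male) pooled nuclei from 4 rats, so the library is the replicate, with n = 2 libraries per treatment and n = 2 per sex. The labels list no transgene or deletion, and all groups shared the injections and the open field. Pooling hides the spread between rats.

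The libraries held between 31484217 and 40737786 UMIs, and 24843 nuclei were kept after filtering, with median depths of 4205 to 4831 UMIs per nucleus. Between 10 and 18 cell barcodes were shared by any pair of libraries, at most 0.282% of the smaller one. Nuclei were clustered without the 3 receptor genes and clusters were named from marker genes that exclude them. The saline female library stood apart in its makeup: D1-MSN-like nuclei were 13.6% of it against 19.8% to 22.8% of the other libraries, and their median depth was 9969 UMIs against 6730.5 to 7871.

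The label of each class was checked against its markers, which also set the names and are given only as a description. D1-MSN-like nuclei (4867 nuclei, clusters 2 and 4) had Pdyn, the dynorphin precursor, at 47.0 ± 5.07 CPM (the usual depth-scaled unit, UMIs of a gene over all UMIs of the class in a library; mean ± SD, n = 4 libraries) and Tac1, the substance P precursor, at 193 ± 41.9 CPM. In D2-MSN-like nuclei (3821 nuclei, clusters 1 and 13) the same genes had 1.62 ± 0.717 and 17.6 ± 10.7 CPM. Eya1, also a D1-MSN marker, was near 0 in both classes (0.196 ± 0.129 and 0.304 ± 0.185 CPM). Cluster 4 had far less of the D1-MSN marker Ebf1 than cluster 2 (24.5 ± 8.03 against 606 ± 11.3 CPM). Its 7 D1-MSN markers summed to 368 to 555 CPM, against 932 to 1095 CPM. Tac1 overlapped between these clusters, and Sfxn1 was higher in cluster 4 (34.1 ± 2.09 against 24.5 ± 1.82 CPM). Penk, the enkephalin precursor, had 423 ± 114 CPM in D2-MSN-like nuclei and 16.6 ± 9.66 CPM in D1-MSN-like nuclei. Adora2a, the adenosine receptor of Drd2 neurons, had 212 ± 13.5 against 3.87 ± 2.03 CPM. The D2-MSN-like values were mostly those of the larger cluster 1, from which cluster 13 differed in part. Cluster 13 had less Penk (58.1 ± 31.1 against 460 ± 124 CPM) and more Tac1 (127 ± 90.1 against 6.82 ± 2.81 CPM), without overlap. Adora2a (209 ± 6.49 against 212 ± 14.6 CPM) and Pdyn (1.05 ± 2.09 against 1.68 ± 0.667 CPM) overlapped. UMIs were counted at the 3′ end, so levels are compared between classes within a gene and not between genes.

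Drd1 was found mainly in 3 spiny-neuron-like clusters at similar levels. Of its 5750 UMIs, 73.7% were in D1-MSN-like nuclei and 17.6% in Eccentric or Grm8 MSN-like nuclei. Its level in D1-MSN-like nuclei was 91.5 CPM in the saline female library, 92.2 in cocaine female, 117 in saline male and 118 in cocaine male. Both male libraries were above both female libraries, and the treatments overlapped. Cluster 9, led by Foxp2, Casz1 and Otof, had 108 ± 19.4 CPM (n = 4), cluster 2, led by Reln, had 106 ± 15.6 CPM, and cluster 4, led by Fstl4, Strip2 and Htr4, had 102 ± 17.5 CPM. The ranges of these 3 clusters overlapped, so their order is not resolved.

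A second tier of Drd1 lay below them without overlap. Cluster 14 had 45.4 ± 16.0 CPM, Sst interneuron-like nuclei 45.3 ± 16.1 CPM, and cluster 7, the Chst9- and Grm8-led part of the Eccentric or Grm8 class, 41.9 ± 10.4 CPM. The 3 ranges overlapped. Each remaining class or cluster large enough to compare (25 or more nuclei per library) had a mean of 10.6 CPM or less, and D2-MSN-like nuclei had 3.08 ± 1.24 CPM. Oligodendrocyte-like nuclei, which should lack the receptor, had 4.74 ± 1.32 CPM. The ranges overlapped (1.92 to 4.33 CPM in D2-MSN-like and 3.72 to 6.62 CPM in oligodendrocyte-like nuclei), so their order in CPM is not resolved. At an equal depth of 1000 UMIs, 0.297% of D2-MSN-like and 0.497% of oligodendrocyte-like nuclei held a Drd1 UMI. The unthinned shares went the other way, with 1.91% and 0.851%, at median depths of 7302 and 1728 UMIs. Whether the Drd1 UMIs of D2-MSN-like nuclei are background was not tested.

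Drd2 was concentrated in D2-MSN-like nuclei, which held 95.3% of its 25371 UMIs. The level there was 857 CPM in saline female, 728 in cocaine female, 862 in saline male and 772 in cocaine male. Both saline libraries were above both cocaine libraries, and females and males overlapped. Cluster 13, the smaller D2-MSN-like cluster (359 nuclei, led by Zfp804a, Gucy1a1, Dach1 and Casz1), had 941 ± 117 CPM and cluster 1 (3462 nuclei, led by Calcr, Adora2a and Penk) had 791 ± 59.5 CPM. Their ranges over libraries did not overlap, although the lowest value of cluster 13 (845 CPM) was close to the highest of cluster 1 (844 CPM).

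Outside these clusters Drd2 formed a scattered lower tier. Sst interneuron-like nuclei had 41.2 ± 13.2 CPM, the unnamed cluster 3 (1896 nuclei, led by Prlr, Klhl1 and Car10) had 25.9 ± 4.28 CPM, and Pvalb/Pthlh interneuron-like nuclei had 21.2 ± 5.83 CPM. Microglia-like nuclei had 25.6 ± 24.0 CPM from 25 UMIs. The 31.9 CPM of cluster 14 rested on the saline female library, which had 101 CPM against 4.80 to 15.5 CPM in the others, and 21 of its 27 Drd2 UMIs were in 3 nuclei. The 79 Cholinergic interneuron-like nuclei, in which D2 receptors are known to act, had 65 Drd2 UMIs, at 57.1 CPM in saline female, 72.8 in cocaine female, 89.1 in saline male and 27.2 in cocaine male. They were too few for a test, with 8 nuclei in the smallest library. At 1000 UMIs, 5.66% of cholinergic-like, 4.30% of Sst-like and 2.17% of cluster 3 nuclei held a Drd2 UMI, against 0.406% of oligodendrocyte-like nuclei and 1.13% of microglia-like nuclei. At that depth the microglia-like range over libraries (0.497% to 1.84%) reached that of cluster 3 (1.71% to 2.62%), so their order is not resolved there. Unthinned, the ranges were apart: 7.955% to 13.6% of cluster 3 and 0.855% to 2.12% of microglia-like nuclei held a Drd2 UMI. The median depths were 7274 and 1348 UMIs, and the part of depth in the unthinned shares was not tested.

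Drd3 followed neither pattern. Its highest level was in cluster 14, an unnamed spiny-neuron-like cluster of 316 nuclei, with 426 CPM in saline female, 334 in cocaine female, 421 in saline male and 452 in cocaine male. The 4 values were far above every other cluster. Cluster 4 came next at 65.7 ± 14.5 CPM, followed without overlap by cluster 2 at 36.7 ± 4.29 CPM and cluster 9 at 30.1 ± 3.53 CPM, whose ranges overlapped. Its 316 of 24843 nuclei held 12.8% of the 3256 Drd3 UMIs, while D1-MSN-like nuclei held 57.8%.

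D2-MSN-like nuclei were divided in Drd3. Cluster 1 had 16.6 ± 2.60 CPM, with values from 14.2 to 20.1, whereas cluster 13 had 0 CPM in both saline libraries, 1.83 in cocaine female and 4.19 in cocaine male, with 4 UMIs in its 359 nuclei. The ranges did not overlap. Cluster 13 therefore had the higher Drd2 and the lower Drd3 of the pair. At 1000 UMIs, 1.57% of cluster 1 nuclei and 0.188% of cluster 13 nuclei held a Drd3 UMI, against 0.015% of oligodendrocyte-like nuclei. The Drd3 of cluster 1 was thus above the background measured in glia, while Drd3 had 0 UMIs in 779 microglia-like and 452 glutamatergic neuron-like nuclei. A count of 0 allows a share of nuclei with a UMI of up to 0.385% and 0.664% (3 counts of the total, counting error only).

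**Figure D1:**
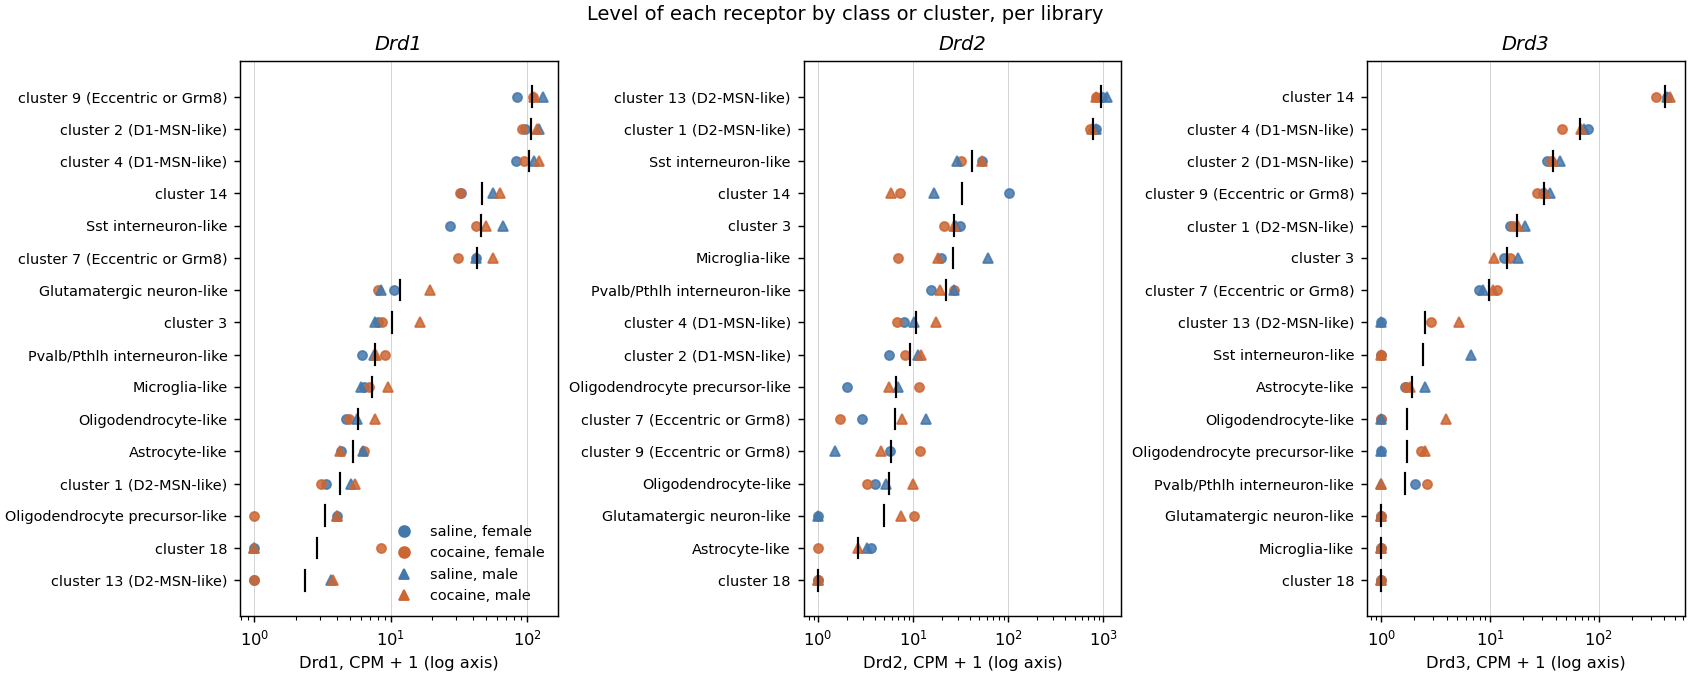
Level of Drd1, Drd2 and Drd3 (CPM + 1, log axis) in each class or cluster with at least 25 nuclei per library, ordered by mean; points are the 4 libraries (colour for treatment, shape for sex) and black bars their mean. Drd1 has 3 clusters near 100 CPM, Drd2 has clusters 13 and 1 far above the rest, and Drd3 has cluster 14 alone at the top with 408 CPM.

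Cluster 14 was led by Adamtsl1, Stac, Lgr6, Epha3 and Tcerg1l. Its best marker list was D1-MSN, with a score of 2.27. It was left unnamed because its general MSN score, 1.23, was under the limit of 2. Single markers were mixed. It had the D1-MSN markers Tac1 (333 ± 135 CPM), Isl1 (255 ± 53.6 CPM) and Chrm4 (126 ± 49.1 CPM). In contrast, Pdyn (8.23 ± 7.14 CPM), Ebf1 (18.1 ± 18.0 CPM) and Reln (1.99 ± 2.39 CPM) were low. The 8 general MSN markers summed to 2125 to 2867 CPM against 5935 to 6227 CPM in D1-MSN-like nuclei, but did not all go one way. Ppp1r1b, which encodes DARPP-32, the dopamine-regulated phosphatase inhibitor, had 27.1 ± 13.1 CPM against 192 ± 12.5 CPM in D1-MSN-like nuclei, and Meis2 had 120 ± 54.7 against 1452 ± 58.5 CPM. Bcl11b, a transcription factor of striatal neurons, was instead higher, with 637 ± 62.2 against 385 ± 28.8 CPM, and Rgs9 overlapped, with 489 ± 95.6 against 582 ± 49.4 CPM. The GABA-synthesis genes Gad1 and Gad2 were present at 359 ± 108 and 499 ± 62.4 CPM. The nuclei were shallow, with a median of 2917 UMIs against 7771 in D1-MSN-like nuclei, and made up 0.694% of the saline female library and 1.26% to 1.85% of the others.

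Drd3 also varied within the D1-MSN-like class. When clusters were drawn more finely (resolution 1), the D1-MSN-like clusters held 2632, 1837 and 403 nuclei. They had 29.6, 67.4 and 74.0 CPM of Drd3 in that order. How their nuclei were spread over clusters 2 and 4 is not given here. The overall D1-MSN-like level was 46.6 ± 7.11 CPM. This split was chosen after the data were seen and has no test.

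The UMIs of each receptor were then counted per nucleus. Of D1-MSN-like nuclei, 2249 of 4867 had no Drd1 UMI, 1565 had 1, and 368 had 3 or more, with a highest count of 8. In D2-MSN-like nuclei 96.3% had a Drd2 UMI, 2244 of 3821 had 5 or more, and the highest count was 32. In cluster 14, 63.9% of nuclei had a Drd3 UMI, compared with 21.8% of D1-MSN-like and 8.03% of D2-MSN-like nuclei, despite the lower depth of cluster 14. At an equal depth of 1000 UMIs the shares with Drd3 were 32.9 ± 2.70%, 4.28 ± 0.659% and 1.43 ± 0.267% (n = 4 libraries).

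**Figure D2:**
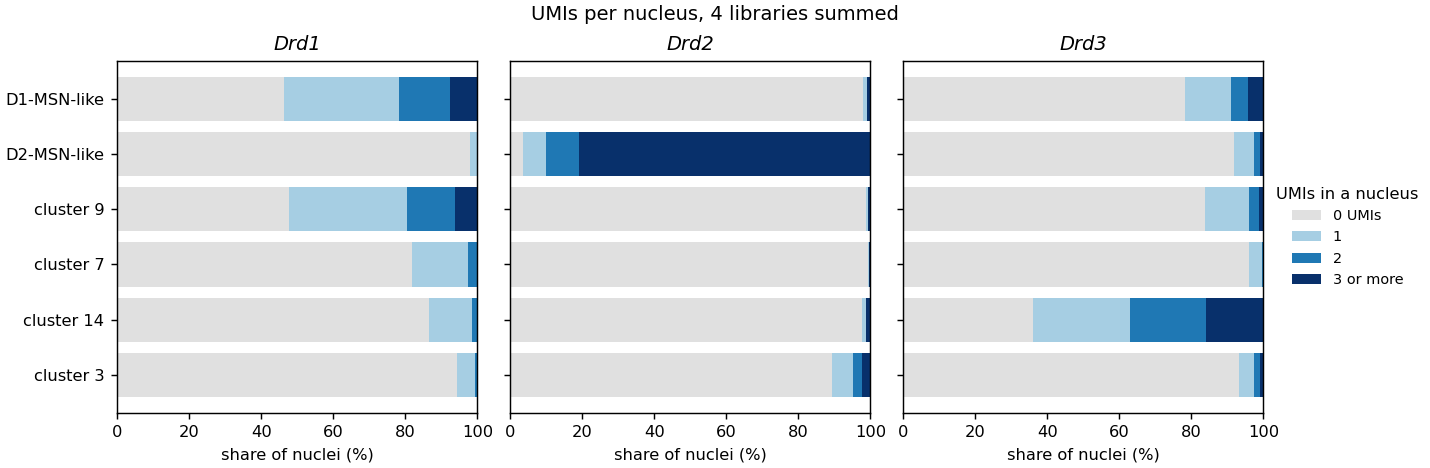
Share of nuclei (%) with 0, 1, 2 or at least 3 UMIs of each receptor in 6 classes or clusters, with the 4 libraries summed. Most D2-MSN-like nuclei hold 3 or more Drd2 UMIs, while 53.8% of D1-MSN-like nuclei hold a Drd1 UMI and 63.9% of cluster 14 nuclei hold Drd3.

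Taking the receptors per nucleus, 40.9% of D1-MSN-like nuclei had Drd1 alone, 9.47% had Drd3 alone, 11.8% had both without Drd2, and 35.6% had none of the 3. In D2-MSN-like nuclei 87.4% had Drd2 alone, 7.38% had Drd2 with Drd3, and 2.98% had none. In cluster 14, 54.1% had Drd3 alone and 8.23% had Drd1 with Drd3. Because depth sets these shares, a nucleus without a UMI is not shown to lack the RNA. All 3 receptors were seen together in 31 of 11010 spiny-neuron-like nuclei.

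Co-detection was then compared with what the separate shares predict if receptors were placed in nuclei independently. Each nucleus was reduced to 3000 UMIs by calculation, averaging over all possible draws, which left out 169 D1- and D2-MSN-like nuclei below that depth and kept 8519. The ratio of observed to predicted nuclei was computed in each library, with no p. Drd1 and Drd2 were seldom found together: in D1- and D2-MSN-like nuclei together, 27.1 nuclei held both against 511 predicted. The ratio was 0.0498 ± 0.0187 (SD, n = 4), from 0.0343 to 0.0746 over libraries. Within a class the ratio for this pair was much nearer to 1. It was 0.572 ± 0.123 in D1-MSN-like nuclei, from 8.73 nuclei against 15.3 predicted. In D2-MSN-like nuclei it was 0.676 ± 0.0816, from 18.4 nuclei against 26.55 predicted. Both male libraries (0.0538 and 0.0746) were above both female libraries (0.0343 and 0.0363).

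Drd3 sorted with Drd1 more often than with Drd2 in the pooled D1- and D2-MSN-like nuclei. The ratio for Drd1 and Drd3 was 1.38 ± 0.109, above 1 in all 4 libraries, and that for Drd2 and Drd3 was 0.488 ± 0.0218, below 1 in all 4. Within a class, the ratio of Drd3 with the receptor of that class was close to 1. In D1-MSN-like nuclei 145 nuclei had Drd1 and Drd3 against 145 predicted (ratio 0.984 ± 0.0747), and in D2-MSN-like nuclei 125 had Drd2 and Drd3 against 127 predicted (ratio 0.986 ± 0.0508). The ranges, 0.919 to 1.07 and 0.912 to 1.02, both included 1. In cluster 4 the ratio for Drd1 and Drd3 was 0.995 ± 0.0667, and in cluster 9 it was 0.988 ± 0.0883.

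**Figure D3:**
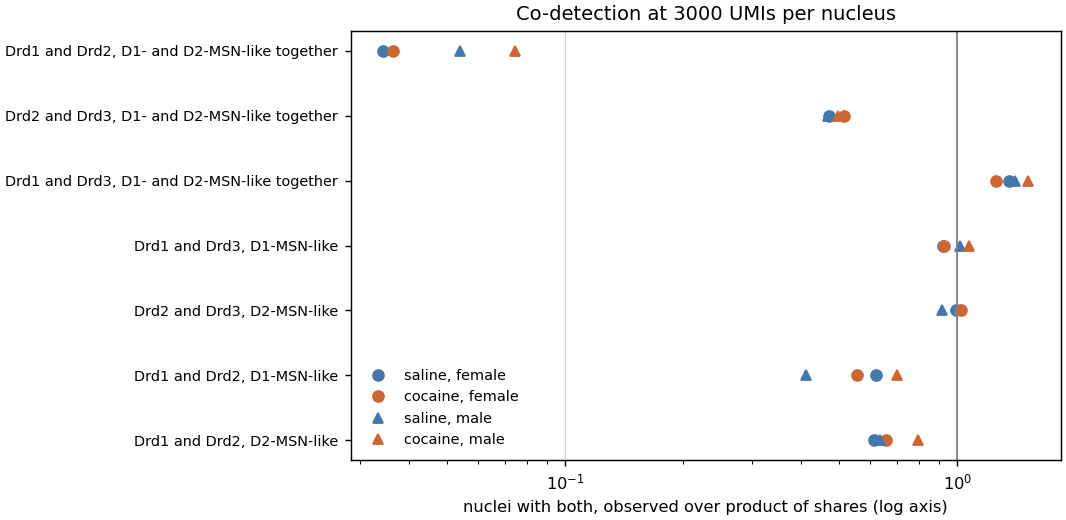
Nuclei holding both receptors of a pair, observed over the product of the single shares (log axis), at 3000 UMIs per nucleus; each point is 1 library and the line marks 1. Drd1 with Drd2 lies far to the left at 0.0343 to 0.0746 in the pooled classes, whereas Drd3 with the receptor of its class lies around 1. Within a class, Drd1 with Drd2 lies at 0.41 to 0.70 in D1-MSN-like and 0.615 to 0.796 in D2-MSN-like nuclei.

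Few nuclei accounted for Drd2 among D1-MSN-like nuclei. There 106 of 4867 nuclei held a Drd2 UMI, and the 28 with 5 or more carried 64.9% of the 353 Drd2 UMIs of the class. Those 28 had a median of 14 UMIs of D2-MSN marker genes, against 1 where Drd2 was 0, and a median depth of 14818.5 against 7737 UMIs. Their median doublet score was 0.0756 against 0.0397. Nuclei with 1 Drd2 UMI had 1 D2-marker UMI, the same median as nuclei without Drd2. Whether the 28 are pairs of nuclei in 1 droplet was not tested. Among the 3034 nuclei that a per-nucleus marker gate called D1-MSN-like, Drd2 was 1.31 ± 0.734 CPM against 8.69 ± 3.52 CPM in the whole class. Of these, 13 were from D2-MSN-like clusters. Of the class itself, the gate called 170 nuclei D2-MSN-like and 1676 neither. The gate drops nuclei rich in D2-MSN markers by rule, so a lower Drd2 level was built in.

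Cocaine against saline was tested on UMIs summed per library and class, with edgeR's quasi-likelihood test fitted over all genes with sex as a covariate and Benjamini-Hochberg adjustment over all genes of the class. A call is an adjusted p under 0.05. No receptor was called in any of 19 receptor and class combinations over 8 classes. At an unadjusted p under 0.05 there were 2, and DESeq2 called 0, with 1 at an unadjusted p under 0.05. Of all genes, 0.234% were called for D1-MSN-like nuclei, and 0.88% for D2-MSN-like ones. The shares were 0.0259% in Eccentric or Grm8 MSN-like nuclei, 0.269% in cluster 14 and 0.0248% in cluster 3. They were 0% in Sst-like (edgeR, 437 genes at an unadjusted p under 0.05; DESeq2 called 0, with 16 under that value), 0.203% in Pvalb/Pthlh-like and 0.15% in oligodendrocyte-like nuclei. With 2 libraries against 2, an exact permutation test of 1 value cannot go below p = 0.333.

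Drd1 was close to equal in the treatments. In D1-MSN-like nuclei it had 104 ± 18.1 CPM after saline and 105 ± 18.5 CPM after cocaine (n = 2 libraries each). The cocaine library differed from the saline library of its sex by 0.01 on the log2(CPM + 1) scale in females and 0.02 in males. The edgeR log2 difference, cocaine minus saline, was -0.01 (SE 0.08, adjusted p = 0.985). In edgeR fits of single clusters, cluster 2 had -0.09 (SE 0.09, adjusted p = 0.77; 2.09% of genes called) and cluster 4 had 0.15 (SE 0.11, adjusted p = 0.822). In Eccentric or Grm8 MSN-like nuclei the edgeR difference was 0.04 (SE 0.13, adjusted p = 0.968).

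Drd2 in D2-MSN-like nuclei was the receptor nearest to a call. The saline libraries had 860 ± 3.69 CPM and the cocaine libraries 750 ± 31.5 CPM, without overlap. The difference of log2(CPM + 1) was -0.24 in females and -0.16 in males, and the log2 difference was -0.24 in the edgeR fit (SE 0.07, unadjusted p = 0.000498, adjusted p = 0.0533), which missed the threshold. It passed with RLE size factors (adjusted p = 0.0324), without a low-count filter (0.0243) and with finer clusters (0.0464), and not with DESeq2 (adjusted p = 1), so the call depends on the setting. Cocaine libraries lay below saline libraries without overlap for 11.5% of genes in this class. In the edgeR fit of this class a gene's own spread between libraries had little weight (prior degrees of freedom 176, against 1 residual).

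Both D2-MSN-like clusters had the same sign for Drd2. Cluster 13 had 982 CPM in saline female, 845 in cocaine female, 1089 in saline male and 850 in cocaine male, a log2 difference of -0.31 (SE 0.10, edgeR adjusted p = 0.241; 0.379% of genes called). Cluster 1 had 844, 719, 835 and 764 CPM in the same order, a log2 difference of -0.23 (SE 0.07, edgeR adjusted p = 0.333; 0.112% of genes called). In each cluster both cocaine libraries were below both saline libraries, as for 15.1% of genes in cluster 13 and 10.8% in cluster 1. The summed level of the 7 D2-MSN markers, which leave out Drd2, did not go down with it. The sum was 1551 and 1559 CPM in saline and cocaine females and 1705 and 1894 CPM in saline and cocaine males. Penk, a large part of the sum, varied from 341 to 590 CPM over the libraries. Adora2a, another of these markers, had 216 and 193 CPM in saline and cocaine females and 215 and 224 CPM in saline and cocaine males. The sum therefore does not show how each marker moved.

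Drd3 in D1-MSN-like nuclei had 43.9 CPM in saline female, 39.3 in cocaine female, 56.1 in saline male and 47.3 in cocaine male. Each cocaine library was below the saline library of its sex, but the treatments overlapped. The log2 difference was -0.23 (SE 0.09, unadjusted p = 0.0257, edgeR adjusted p = 0.503). The difference of log2(CPM + 1) was -0.16 in females and -0.24 in males. Fits that leave out 1 library also drop the sex term, and gave -0.06 without the saline male and -0.39 without the saline female library.

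The Drd3 values of the D1-MSN-like clusters differed in size. Cluster 4 had 78.1 CPM in saline female, 45.0 in cocaine female, 72.4 in saline male and 67.3 in cocaine male, a log2 difference of -0.42 (SE 0.14, edgeR adjusted p = 0.175; 0.75% of genes called). Both cocaine libraries were below both saline libraries, as for 15.9% of genes there. The female pair differed more than the male pair, with differences of log2(CPM + 1) of -0.78 and -0.10. Without the cocaine female library and the sex term the fitted difference was -0.16. Cluster 2 had 32.4, 35.3, 42.6 and 36.5 CPM in the same order, with -0.08 (SE 0.12, edgeR adjusted p = 0.867). The difference between the clusters was not tested. Cluster 4 was 3.47% of nuclei in the saline female library and 7.27% to 10.1% in the others, and the part of this makeup in the result was not tested.

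In cluster 14, where Drd3 was highest, saline libraries had 423 ± 3.83 CPM and cocaine libraries 393 ± 83.5 CPM. The log2 difference was -0.13 (SE 0.20, edgeR adjusted p = 0.929), with a lower value in cocaine females and a higher one in cocaine males. In D2-MSN-like nuclei Drd3 had 15.4 ± 3.66 CPM after saline and 15.0 ± 1.01 CPM after cocaine, a log2 difference of -0.07 (SE 0.16, edgeR adjusted p = 0.95). The large standard errors leave differences of moderate size undetected at this depth. In simulated D1-MSN-like libraries of this design, 18% of genes changed 1.5-fold and 82% of those changed 2-fold were recovered. The simulation assumed a fixed dispersion, the same for every gene, and changed only genes with many UMIs. It was not run for cluster 14 or D2-MSN-like nuclei, so it gives no recovery for them.

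**Figure D4:**
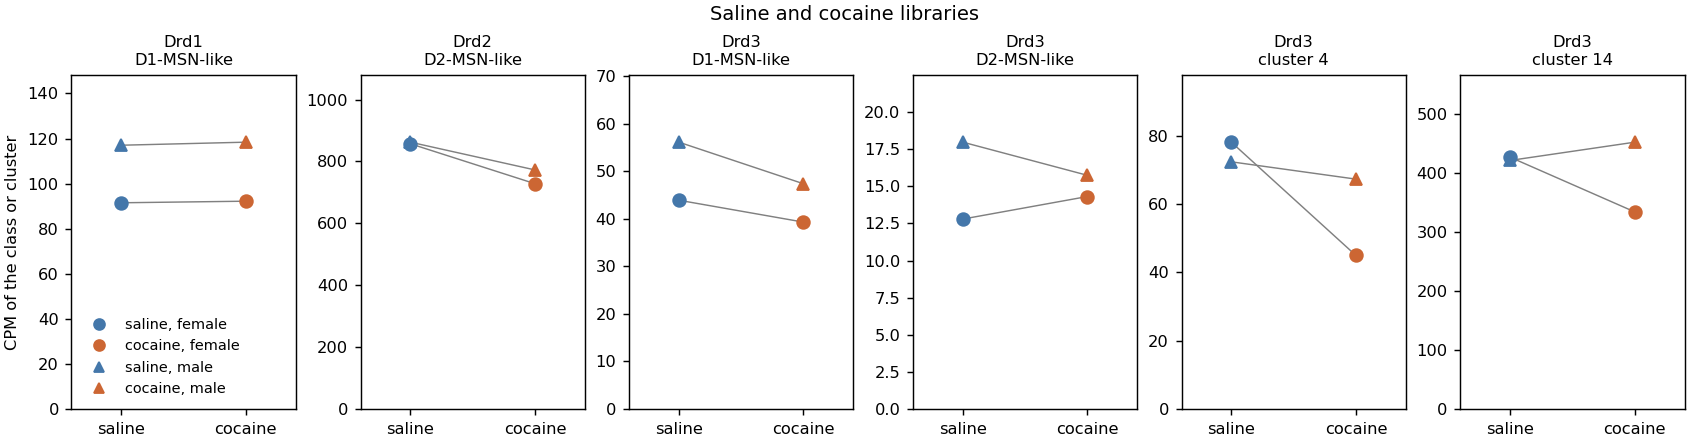
Level (CPM, axes from 0) of a receptor in the saline and cocaine libraries of 6 receptor and class or cluster pairs; each point is 1 library and grey lines join libraries of the same sex. Drd1 is level, Drd2 lies at 857 and 862 CPM after saline and 728 and 772 CPM after cocaine, and Drd3 in cluster 4 moves mainly in females.

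Drd1 had higher values in male than in female libraries of most spiny-neuron-like clusters, and also of Sst-like and oligodendrocyte-like nuclei. The margin in D1-MSN-like nuclei was modest, and the test was passed in cluster 2 alone among the units tested. In D1-MSN-like nuclei females had 91.8 ± 0.498 CPM and males 118 ± 0.958 CPM (n = 2 libraries each), a log2 difference, male minus female, of 0.33 (SE 0.08, unadjusted p = 0.000814). With edgeR's adjustment over all genes the p was 0.137, so the class was not called (0.158% of genes called). No receptor was called for sex among the same 19 combinations, 6 had an unadjusted p under 0.05, and DESeq2 called 0 with 2 under that value. The shares of all genes called for sex were 2.18% in D2-MSN-like, 0.0692% in Eccentric or Grm8 MSN-like and 2.92% in oligodendrocyte-like nuclei. They were 0.346% in Pvalb/Pthlh-like nuclei, 0.0327% in Sst-like nuclei, 0.0621% in cluster 14 and 0.0909% in cluster 3.

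Fitted on its own, cluster 2 passed, with 94.9 CPM in saline female, 90.5 in cocaine female, 122 in saline male and 117 in cocaine male. Its log2 difference for Drd1 was 0.33 (SE 0.09, edgeR adjusted p = 0.0128), in a cluster where 3.24% of genes were called for sex. This fit used a spread shared over genes, and the spread of Drd1 itself had no weight. The call was lost with DESeq2 (adjusted p = 1) and when any 1 library was left out together with the treatment term (adjusted p from 0.22 to 0.59), with log2 differences of 0.28 to 0.38. Cluster 4 had a log2 difference of 0.40 (SE 0.11, edgeR adjusted p = 0.103; 0.455% of genes called) and Eccentric or Grm8 MSN-like nuclei 0.45 (SE 0.13, adjusted p = 0.414); without the cocaine female library and the treatment term these were 0.52 (adjusted p = 0.0307) and 0.58 (adjusted p = 0.0179). Both male libraries were above both female libraries for Drd1 in 8 of 12 classes or clusters with at least 15 Drd1 UMIs, and the reverse held in 0. The 8 were clusters 1, 2, 4, 7, 9 and 14, Sst-like nuclei and oligodendrocyte-like nuclei, so they include glia that should lack the receptor. In cluster 7 the saline male library was barely above the saline female library. Male libraries lay above female libraries without overlap for 23.1% of all genes in D1-MSN-like nuclei, 24.4% in cluster 2, 18% in cluster 4, 17.4% in cluster 9, 18.5% in cluster 7 and 17% in cluster 14. The share was 18.3% in Sst-like nuclei, 23.7% in oligodendrocyte-like nuclei and 20.6% in cluster 1. Female D1-MSN-like nuclei were deeper (median 9969 and 7871 UMIs) than male ones (7370 and 6730.5), and the part of depth was not tested.

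**Figure D5:**
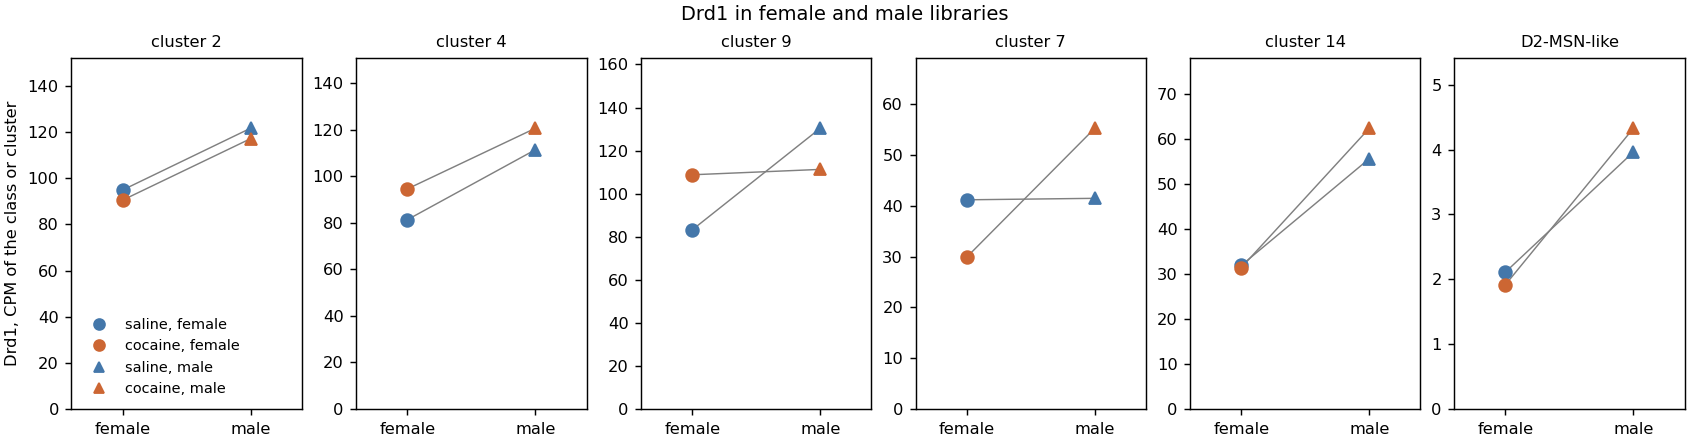
Drd1 (CPM, axes from 0) in female and male libraries of 5 spiny-neuron-like clusters and of D2-MSN-like nuclei; each point is 1 library and grey lines join libraries of the same treatment. Every line rises from female to male, with 81.4 and 94.6 CPM in females against 111 and 121 CPM in males in cluster 4.

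Drd3 in D1-MSN-like nuclei had a log2 difference of 0.29, male minus female (SE 0.09, edgeR adjusted p = 0.227), and Drd2 in D2-MSN-like nuclei had 0.04 (SE 0.07, adjusted p = 0.881). Drd2 in D1-MSN-like nuclei was 5.15 and 6.69 CPM in females and 9.85 and 13.1 CPM in males, a log2 difference of 0.93 (SE 0.18, edgeR adjusted p = 0.0812). Of the 28 nuclei with at least 5 Drd2 UMIs, 3 and 5 were in the female libraries and 9 and 11 in the male ones. Without those 28 nuclei Drd2 was 1.18 and 2.48 CPM in females and 3.52 and 5.08 CPM in males, still without overlap. In the whole class, male libraries lay above female libraries without overlap for 23.1% of genes. Without doublet removal the difference was 0.29 (adjusted p = 0.534). In cluster 2 alone Drd2 passed, with 0.83 (SE 0.24, edgeR adjusted p = 0.0293), where 3.24% of genes were called for sex. This is the same fit that called Drd1, and a gene's own spread had no weight in it. The summed D2-MSN markers in D1-MSN-like nuclei were 175 and 191 CPM in females and 199 and 215 CPM in males, and their part in the result was not tested.

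The rest of the dopamine signalling pathway was given by a list of 67 genes for dopamine synthesis and uptake, other receptors, G proteins, regulators, and cyclases and effectors. In D1-MSN-like nuclei 59 were tested and 0 passed in either direction for cocaine against saline, with 5 at an unadjusted p under 0.05 by edgeR and 1 by DESeq2. Their median log2 difference was -0.02, beside -0.0007 for all genes; 0.189% of all genes rose and 0.0453% fell. In D2-MSN-like nuclei 60 were tested, 0 rose and 1 fell, with a median of -0.05 beside 0.0004 for all genes; 0.511% of all genes rose and 0.369% fell there.

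The gene that fell was Pde4b, a phosphodiesterase that degrades cyclic AMP, the messenger made by adenylyl cyclase. It had 1754 CPM in saline female, 1540 in cocaine female, 2152 in saline male and 1734 in cocaine male, a log2 difference of -0.29 (SE 0.07, edgeR adjusted p = 0.00498). Each cocaine library was below both saline libraries. The call was lost with DESeq2, without the sex term, without doublet removal and, with the sex term also dropped, when 3 of the 4 libraries were left out in turn, the saline female library being the exception. In D1-MSN-like nuclei Pde4b had a log2 difference of -0.24 (SE 0.08, edgeR adjusted p = 0.395), which did not pass. Among the 15 regulators and 9 G proteins tested in each class none passed.

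Between the sexes, 0 list genes passed in D1-MSN-like nuclei (12 at an unadjusted p under 0.05 by edgeR, 2 by DESeq2), where 0.106% of all genes rose and 0.0528% fell. In D2-MSN-like nuclei 2 rose and 1 fell in males, where 1.4% of all genes rose and 0.778% fell. Pde4b had a log2 difference, male minus female, of 0.22 (SE 0.07, edgeR adjusted p = 0.0452), and Prkar1b, a regulatory subunit of protein kinase A, had -0.32 (SE 0.09, adjusted p = 0.0218).

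The genes whose level was most like each receptor were found by Pearson's r of log2(CPM + 1) over 17 clusters among 10020 genes, as a description without a p. The clusters share libraries and differ in depth. For Drd1 they were Pdyn (r = 0.906), the muscarinic receptor gene Chrm4 (0.807), Pcp4 (0.791), Galnt18 (0.772) and Lrpap1 (0.762). For Drd2 they were Itgb6 (0.796), Upb1 (0.79), the titin gene Ttn (0.767), Gpr6 (0.764) and Adora2a (0.758). Drd3 had the closest partners: the T-type calcium channel gene Cacna1h (0.94), Gpr26 (0.922), the neuropeptide Y receptor gene Npy5r (0.879) and Slco5a1 (0.859), all of them highest in cluster 14. Between receptors, r was 0.696 for Drd1 and Drd3, 0.176 for Drd2 and Drd3 and -0.11 for Drd1 and Drd2. Pdyn, Chrm4, Gpr6 and Adora2a are among the markers that named the classes.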

How the data were processed

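Single-nucleus RNA was sequenced from sorted nuclei with droplet 3′ v3 chemistry. The authors deposited filtered matrices of UMI counts, whole numbers per gene and nucleus, with barcode and feature lists; Cell Ranger 6.1.2 and rn7 are named in the submitters' processing notes. No source used here gives the annotation, the intron setting or any removal of free RNA. The members, marker lists, pathway list and tests were chosen with earlier results of these data known, and the score limits that name clusters were set after the clusters were seen.

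Barcodes needed 200 genes and a mitochondrial share of no more than 5%. Those with the highest Scrublet scores were removed as doublets (0.8% per 1000 barcodes, 1381 in all; Scrublet's own threshold marked 3.39% to 4.49%). scanpy 1.11.5 clustered the nuclei (2000 variable genes, 30 principal components, 15 neighbours, leidenalg 0.10.2, resolution 0.5) without the receptors, immediate early genes, mitochondrial and sex-linked genes. A cluster was named from a mean marker score, relative to the mean of all clusters, of at least 3, with no other cell type list reaching 3. It also needed at least 3 markers each seen in 5% of nuclei and 1 among its 30 leading genes. D1- and D2-MSN-like clusters needed 1.5, a general MSN score of 2 and at least 3 markers seen. Of 26 clusters 18 were named, and 2685 nuclei stayed unnamed. Of 94 markers, 90 were listed; Pvalb, Slc18a3, Flt1 and Cldn5 were not matched.

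UMIs were summed per library and class, where each library had at least 25 nuclei. edgeR 4.0.16 (TMM, filterByExpr by treatment, treatment and sex as terms) left 1 residual degree of freedom, moderated over genes. DESeq2 1.42.0 was an alternative. The library pools 4 rats, so p-values measure the spread between pools, and intervals or spreads do not show variation between animals. Fits that leave out 1 library drop the other term, and the lone library is assumed to vary like the others. The per-nucleus marker gate took nuclei of D1- and D2-MSN-like clusters with at least 2 UMIs of one marker list and at least 3 times the other's. The scripts were tested on simulated data. The text names the receptors, list genes that passed (up to 6 per class), the 5 genes most like each receptor, markers of a described class and up to 5 leading genes of a described cluster; Pde4b in D1-MSN-like nuclei and other values outside this rule were added after being seen. Some genes that this rule names are not reported here.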

Additional observations from a re-analysis of the deposited data

Results flagged for a closer look

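Drd1 in cluster 7, the Chst9- and Grm8-led cluster, moved in opposite directions in the sexes: the cocaine library differed from the saline library by -0.45 in females and by 0.41 in males, on the scale of log2(CPM + 1). The levels were 41.2 and 29.9 CPM in saline and cocaine females and 41.5 and 55.3 CPM in saline and cocaine males. With 1 library per sex and treatment the difference was not tested. A receptor in a class or cluster was listed here where the sexes moved in opposite directions, by at least 0.25 each, with at least 20 UMIs in every library.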

How the results depend on the processing

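Fits that leave out 1 library also drop the sex term and so leave the sexes unbalanced between treatments. For Drd1 in D1-MSN-like nuclei the log2 difference between cocaine and saline ranged from -0.19 to 0.17 when 1 library was left out, turning positive without the cocaine female library (0.14) or the saline male library (0.17); within each sex the difference was 0.01 or 0.02, and no alternative called it. Drd3 in D1-MSN-like nuclei kept its sign in all 12 alternatives (-0.39 to -0.06) and was called in none. Drd2 in D2-MSN-like nuclei kept its sign in all 12 (-0.27 to -0.20); it was called with RLE size factors (-0.24), without the low-count filter (-0.24) and with clusters at resolution 1 (-0.24), and in none of the others, where adjusted p reached 1. Drd3 in cluster 14 ranged from -0.36 to 0.0803 when 1 library was left out, the positive value being that without the cocaine female library. Among the other receptor and class pairs 1 was called without a low-count filter (Drd2 in cluster 14, in which 1 saline library holds most UMIs) and 0 otherwise. For sex, 2 receptors were called without the filter, 2 when each cluster was fitted on its own, and 0 to 2 when a library was left out. Of the pathway list, 0 genes passed in D2-MSN-like nuclei with DESeq2, without the sex term or without doublet removal, and 0 to 2 when a library was left out; 0 passed in D1-MSN-like nuclei under every alternative run. Mean co-detection ratios in the pooled classes moved by more than 1 SD between libraries only under the per-nucleus gate, to 1.52 for Drd1 with Drd3 and to 0.551 for Drd2 with Drd3; Drd1 with Drd2 stayed between 0.041 and 0.0616 at depths of 1000, 2000 and 5000 UMIs, without doublet removal and under the gate. The 4 levels checked (Drd1 and Drd3 in D1-MSN-like nuclei, Drd2 in D2-MSN-like nuclei, Drd3 in cluster 14) stayed within 1 SD. Fits per cluster, the depth of 1000 UMIs and the levels at resolution 1 or under the gate were chosen after seeing the data. The labels give no replicate numbers; each sex is 1 saline and cocaine pair, and the sex term of the reported fit takes it as a block. Without that term no receptor was called for cocaine (Drd2 in D2-MSN-like nuclei -0.24, edgeR adjusted p = 0.969).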
